A study of Mus musculus with 6 samples.

Results

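The genes described here take iron into the cell, store it as ferritin, release it again and sense it. They are 10 of the 21853 genes in the deposited table, chosen by symbol: Tfrc, Slc11a2 and Steap3 for uptake, Fth1, Ftl1, Ncoa4 and Pcbp1 for storage, and Aco1, Ireb2 and Fbxl5 for sensing. Each symbol stood on 1 row, and all 10 passed the low-value filter. The cells were embryonic fibroblasts of C57BL/6J mice, with an age of 12 days in the labels, and both groups lacked xCT, the transporter subunit that brings in cystine. The 3 RCE libraries came from cells given red clover extract and the 3 control libraries from cells given water. The sources used here give neither dose nor exposure time, and nothing of the medium's iron, of how the knockout was made or of whether the cells were 1 line or several. No label says that replicates were separate cultures, so each p-value speaks only of the spread among these 6 libraries, and that spread may be technical.

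Iron reaches most cells bound to transferrin, which the transferrin receptor carries into endosomes. There a STEAP reductase reduces the iron and SLC11A2 moves it into the cytosol, where PCBP chaperones hand it to ferritin. NCOA4 carries ferritin to the lysosome when iron is needed. Iron regulatory proteins (IRPs) bind a stem-loop, the iron-responsive element, when iron is short. Bound in the 5′ untranslated region (UTR), as in ferritin mRNA, they block translation. Bound in the 3′ UTR, as in transferrin receptor mRNA, they protect the mRNA from decay. Iron shortage is thus known to raise Tfrc mRNA and iron excess to lower it, while ferritin is controlled to a large part in translation, which mRNA levels do not show.

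The opposite positions of the element can be read in the mm10 transcripts. The pattern searched on the sense strand was a C, any 5 bases, the loop CAGTGN and then 5 bases that pair with the earlier 5, G-T pairs allowed. In the 30-base stretches below, written 5′ to 3′ with T for U, capitals mark the C that bulges from the stem and the 6 bases of the loop. They are shown because the position of this element sets which way an IRP target is known to respond.
Fth1 5′ UTR: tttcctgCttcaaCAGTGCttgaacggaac
Ftl1 5′ UTR: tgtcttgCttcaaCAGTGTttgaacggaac
Slc40a1 5′ UTR: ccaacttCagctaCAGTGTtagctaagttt
Tfrc 3′ UTR, match a: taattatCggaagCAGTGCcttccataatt
Tfrc 3′ UTR, match b: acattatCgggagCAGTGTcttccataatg
Tfrc 3′ UTR, match c: tctatatCggagaCAGTGAtctccatatgt
Tfrc 3′ UTR, match d: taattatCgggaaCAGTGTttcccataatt
Slc11a2 3′ UTR: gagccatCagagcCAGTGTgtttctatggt

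The Fth1 element lies at chr19:9982731-9982760 on the plus strand, with its bulged C at base 93 of the 929-base transcript. That of Ftl1 lies at chr7:45459779-45459808 on the minus strand, with the C at base 84 of 968. The ferritin elements share 27 of 30 bases. Tfrc holds 4 matches, at chr16:32631218-32631247, chr16:32631597-32631626, chr16:32631662-32631691 and chr16:32631709-32631738 on the plus strand. All 4 lie in the 2458-base 3′ UTR of its 4890-base transcript, and the shorter coding transcript of 1860 bases holds none. The Slc11a2 stretch, at chr15:100395153-100395182 on the minus strand, matches only when 1 unpaired base is allowed on the 3′ side of the stem. It is in the 4415-base transcript and not in the 3025-base one, which ends elsewhere. The table gives 1 value per gene, so forms of Slc11a2 with and without the element could not be told apart. Slc40a1, the iron exporter ferroportin, holds its element at chr1:45925465-45925494 on the minus strand. The other 6 members held no match in a UTR. Fully paired matches were in the 5′ UTR of 30 of 20048 genes of the table with such a UTR (0.15%) and in the 3′ UTR of 128 of 20831 (0.614%).

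The libraries held 45650000 to 59000000 fragments, as recovered from the steps between low FPKM values (fragments per kilobase of transcript, scaled to depth). Slc7a11, the targeted gene, was at 0.009, 0.017 and 0.007 FPKM in RCE replicates 1, 2 and 3, and at 0.013, 0.027 and 0.037 FPKM in control replicates 1, 2 and 3. Fibroblast markers had summed levels of 3819 to 3912 FPKM in RCE and 4138 to 4267 FPKM in control, with Vim and Col1a1 highest. The lowest, Pdgfra, was at 2.79 to 3.00 FPKM in RCE and 2.59 to 2.92 FPKM in control. Of the 8 markers 2 were lower with the extract (6 with the replicate block). Over all tested genes 6.77% were called lower, and 15.9% with the block. Summed over 4 neural markers the level was 58.9 to 64.0 FPKM in RCE and 44.7 to 48.9 FPKM in control. Nes and Tubb3 made up most of it and were higher with the extract. Map2, below the filter, was at 0.239 to 0.328 FPKM in RCE and 0.327 to 0.354 FPKM in control. Sox2 was at 0.085 FPKM in RCE replicate 1, 0.099 FPKM in control replicate 1 and 0 elsewhere. Over 4 skeletal muscle markers the summed level was 126 to 146 FPKM in RCE and 116 to 135 FPKM in control. Of these Myod1 was at 0 in every library, and Des was higher (limma adjusted p = 0.0203). The Des call ended with median-of-ratios scaling and without RCE replicate 3, control replicate 2 or control replicate 3. Acta1 overlapped, at 76.4 to 88.1 FPKM in RCE and 78.5 to 91.0 FPKM in control. The part of these markers in the results below was not tested. Endothelial, epithelial and erythroid markers summed to under 3 FPKM per list in every library. Replicate 1 stood apart from replicates 2 and 3 in both groups, and same-numbered libraries deviated together (correlations of 0.92, 0.62 and 0.68 for numbers 1, 2 and 3). Crossed pairs of numbers 2 and 3 reached 0.72 and 0.77, so these values pair number 1 only. The block and the counts of pairs below take numbers 2 and 3 as given.

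At the threshold of 0.05 on the adjusted p (limma, without the replicate block), 0 of the 10 members were called higher and 0 lower with the extract. Over all 10870 tested genes 24.3% were called, 17.6% higher and 6.77% lower. At an unadjusted p under 0.05 there was 1 member, Ftl1, and its RCE and control values were the ones that did not overlap among the 10. Groups did not overlap for 42.2% of all tested genes, 31.2% with RCE higher and 10.9% with RCE lower. With replicate number as a block, 5 members were called higher (Slc11a2, Ftl1, Aco1, Ireb2 and Fbxl5) and 0 lower, where the block called 62.5% of all tested genes, 46.6% higher and 15.9% lower. The members' median change was 0.10 on the log2(FPKM + 1) scale as RCE minus control, beside 0.08 over all tested genes. With median-of-ratios scaling, which sets that median of all genes to 0.00, and the block, 1 member was called higher (Aco1) and 1 lower (Tfrc). The share over all tested genes was then 54.1%, with 26.4% higher and 27.7% lower. Without RCE replicate 1 there was 1 higher member, Aco1, beside 2040 of the 10870 tested genes. Without replicate 1 of both groups there were 5 higher members, beside 4364 of all tested genes. All changes below are RCE minus control on the log2(FPKM + 1) scale unless a ratio is named, and they understate the change of low genes.

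**Figure D1:**
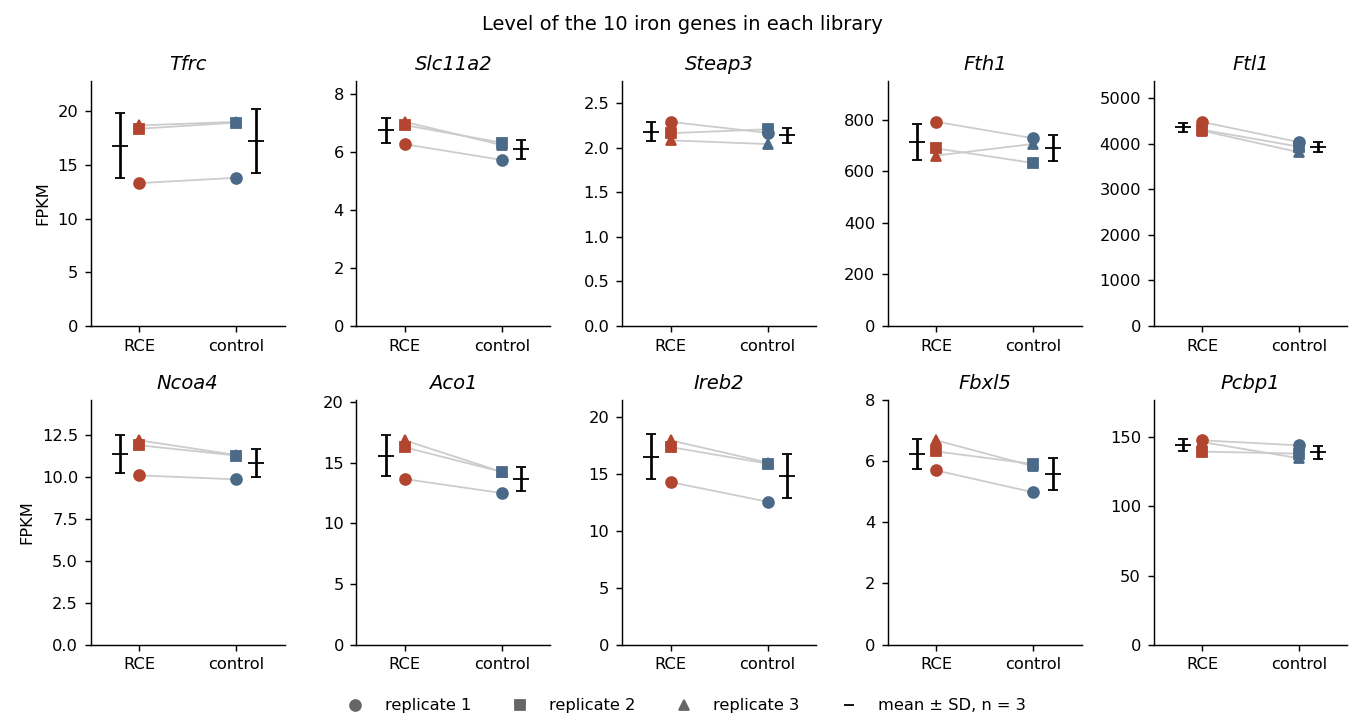
FPKM of each member in every library, with RCE on the left and control on the right of each panel. Grey lines join libraries of the same replicate number, and bars are the mean ± SD (n = 3). Replicate 1 lies below replicates 2 and 3 in both groups for Tfrc, Slc11a2, Ncoa4, Aco1, Ireb2 and Fbxl5, and above them for Fth1, Ftl1 and Pcbp1.

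Among the uptake genes, Tfrc (ENSMUSG00000022797, chromosome 16, 32608920 to 32632794) encodes the transferrin receptor. Its level was 13.3, 18.4 and 18.7 FPKM in RCE replicates 1, 2 and 3, and 13.8, 18.96 and 19.03 FPKM in control replicates 1, 2 and 3. The groups overlapped almost wholly, and the step between replicate 1 and the others was larger than any difference between the groups. Group means were 16.8 ± 3.02 FPKM with the extract and 17.3 ± 2.99 FPKM in control (SD, n = 3), a change of -0.04 with a 95% interval of -0.44 to 0.37 (limma, adjusted p = 0.898).

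Within same-numbered libraries the RCE value of Tfrc was the lower one in 3 of 3 pairs, by log2 ratios of -0.05, -0.04 and -0.03. All 3 pairs were lower for 20.6% of tested genes. The block narrowed the interval to -0.10 to 0.02 and did not call it (adjusted p = 0.23). With the block and median-of-ratios scaling the change was -0.12 and was called lower (adjusted p = 0.00506). With the block and GC correction it was -0.14 (adjusted p = 0.00222). Over all 19 alternatives the adjusted p ran from 0.00222 to 0.932, and the sign turned to 0.11 without RCE replicate 1, 0.03 without control replicate 2 and 0.04 without control replicate 3. Both the block and a recentred scale were thus needed to call Tfrc lower.

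Slc11a2 (ENSMUSG00000023030, chromosome 15, 100387898 to 100425072) encodes DMT1, the transporter that brings iron out of the endosome. Its level was 6.26, 6.92 and 7.03 FPKM in RCE replicates 1, 2 and 3, and 5.72, 6.32 and 6.24 FPKM in control replicates 1, 2 and 3. The RCE library numbered 1 lay among the control values and the other RCE libraries above them. The change of 0.13 (SE 0.06) did not pass in limma (adjusted p = 0.171), and with the block it was called higher (adjusted p = 0.00869). That call ended with the block and median-of-ratios scaling (0.05, adjusted p = 0.206), and the adjusted p ran from 0.00371 to 0.695 over the 19 alternatives. Its exons overlap those of a gene model on the opposite strand over 402 bases, and nothing in the sources used here says whether counting used the strand.

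The members with a 3′ element therefore lay on opposite sides of 0 in same-numbered libraries, Tfrc below in 3 of 3 pairs and Slc11a2 above in 3 of 3. Of all tested genes 56.5% were higher in 3 of 3 pairs, as Slc11a2 was, and 20.6% were lower in 3 of 3. The ratio of Tfrc to Slc11a2 FPKM within a library does not depend on scaling. It was 2.13, 2.66 and 2.66 in RCE replicates 1, 2 and 3, and 2.41, 3.00 and 3.05 in control replicates 1, 2 and 3. It was lower with the extract in each pair, by log2 ratios of -0.18, -0.18 and -0.20. Given as a description, with no test, these mRNAs did not share a direction in same-numbered libraries. The sign of Tfrc turned with single libraries left out, and the Slc11a2 value mixes forms with and without the element. Iron excess or shortage was therefore not read from them.

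Steap3 (ENSMUSG00000026389, chromosome 1, 120190757 to 120272705), an endosomal ferrireductase best known from erythroid cells, had the lowest level of the 10. It was at 2.29, 2.16 and 2.08 FPKM in RCE replicates 1, 2 and 3, and at 2.17, 2.21 and 2.04 FPKM in control replicates 1, 2 and 3. The groups overlapped and the change was 0.02 (95% interval -0.09 to 0.12, adjusted p = 0.802). On its longest coding transcript, 5158 bases, this is 519 to 658 fragments per library.

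**Figure D2:**
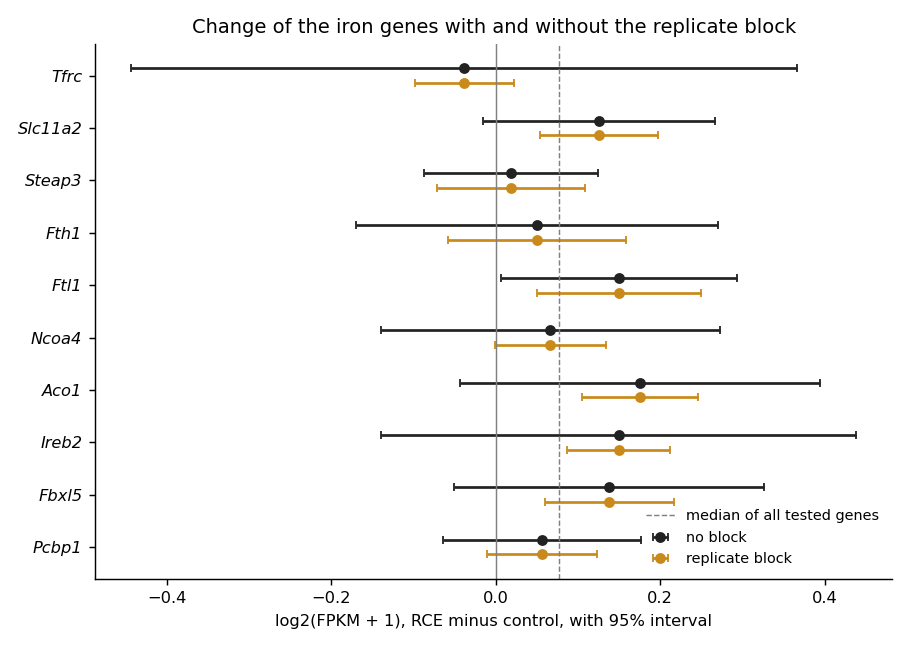
Change of each member on the log2(FPKM + 1) scale, RCE minus control, with its 95% interval from limma without the block (black) and with replicate number as a block (ochre). The dashed line is the median over all tested genes, 0.08. The block narrows the interval of Tfrc from -0.44 to 0.37 down to -0.10 to 0.02, and every member's interval without the block other than that of Ftl1 holds 0.

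Ferritin mRNA was among the most abundant in these cells. Ftl1 (ENSMUSG00000050708, chromosome 7, 45457944 to 45459884), the light chain that helps the iron core form, ranked 1 or 2 among all 21853 genes in every library. It was at 4478, 4307 and 4285 FPKM in RCE replicates 1, 2 and 3, and at 4033, 3934 and 3812 FPKM in control replicates 1, 2 and 3. The RCE values all lay above the control values. Means were 4357 ± 106 FPKM with the extract and 3926 ± 111 FPKM in control (SD, n = 3). The change of 0.15 (SE 0.06, 95% interval 0.01 to 0.29) did not pass in limma (adjusted p = 0.119). It was called higher with the block (adjusted p = 0.0163) and without the trend (adjusted p = 0.0495), and not with the block and median-of-ratios scaling (0.06, adjusted p = 0.239). Over the 19 alternatives the adjusted p ran from 0.00511 to 0.568.

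Fth1 (ENSMUSG00000024661, chromosome 19, 9980598 to 9985098), the heavy chain that oxidises iron for storage, ranked 37 to 53. It was at 792, 689 and 661 FPKM in RCE replicates 1, 2 and 3, and at 728, 632 and 706 FPKM in control replicates 1, 2 and 3. The groups overlapped, and pairs did not share a direction: the log2 ratios were 0.12, 0.12 and -0.10. The change was 0.05 (95% interval -0.17 to 0.27, adjusted p = 0.735). It was -0.04 with median-of-ratios scaling, -0.02 with GC correction, -0.03 without RCE replicate 1 and -0.01 without control replicate 2, so its sign rested on the scaling and on single libraries.

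Light chain mRNA was 5.66, 6.25 and 6.48 times heavy chain mRNA in RCE replicates 1, 2 and 3, and 5.54, 6.22 and 5.40 times in control replicates 1, 2 and 3, in FPKM. These ranges overlapped. Each chain has 2 processed pseudogenes annotated under its family name, whose reads could have been shared with it. Pseudogenes under other names were not counted. Of the 1340 exon bases of Ftl1, 464 overlap other gene models. Macrophages are also rich in ferritin. Summed over 6 macrophage markers the level was 12.8 to 14.7 FPKM in RCE and 16.7 to 17.7 FPKM in control. Of the 3 tested, Lyz2 was lower with the extract (-0.43, adjusted p = 0.00468), Cd68 had a change of -0.12 (adjusted p = 0.511) and Cd14 one of 0.17 (adjusted p = 0.193). With the block Cd14 was called higher (adjusted p = 0.0119, in a range of 0.0021 to 0.693). Below the filter, Csf1r was at 0.418 to 0.492 FPKM in RCE and 0.520 to 0.711 FPKM in control, and Adgre1 at 0.149 to 0.246 FPKM in RCE and 0.137 to 0.25 FPKM in control. None of the 6 was at 0 in all libraries, the pan-leukocyte marker Ptprc was at 0.030 to 0.045 FPKM in RCE and 0.051 to 0.079 FPKM in control, and their part in the ferritin values was not tested. In bulk samples fewer cells of a type and less RNA per cell cannot be told apart.

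The ratio of Tfrc to ferritin mRNA sets the opposite elements side by side within a library. Tfrc to Ftl1 was 0.00297, 0.00427 and 0.00436 in RCE replicates 1, 2 and 3, and 0.00343, 0.00482 and 0.00499 in control replicates 1, 2 and 3. The RCE library had the lower ratio in 3 of 3 pairs, by log2 ratios of -0.20, -0.17 and -0.19. Tfrc to Fth1 was 0.0168, 0.0267 and 0.0283 in RCE replicates 1, 2 and 3, and 0.0190, 0.0300 and 0.0270 in control replicates 1, 2 and 3. This ratio was lower in pairs 1 and 2 (log2 ratios of -0.17 and -0.17) and higher in pair 3 (0.07). The ferritin chains gave different answers in the pair numbered 3, where the pairing rests on the number alone. With numbers 2 and 3 crossed, Tfrc to Fth1 was lower in RCE replicate 2 than in control replicate 3 (0.0267 against 0.0270). It was then also lower in RCE replicate 3 than in control replicate 2 (0.0283 against 0.0300), as in pair 1. These ratios are a description with no test.

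**Figure D3:**
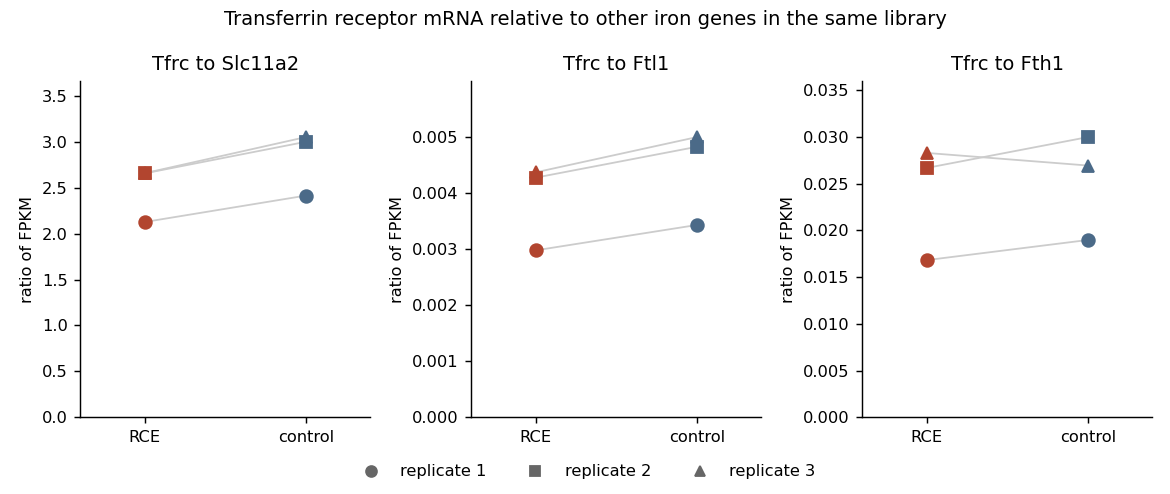
Ratio of Tfrc FPKM to that of Slc11a2, Ftl1 and Fth1 in each library, RCE on the left and control on the right, with grey lines joining same-numbered libraries. In the panels for Slc11a2 and Ftl1 the RCE point of every pair is the lower one, and in the panel for Fth1 that of the pair numbered 3 is the higher one.

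Of the genes that load and unload ferritin, Ncoa4 (ENSMUSG00000056234, chromosome 14, 32159865 to 32179855), the receptor for ferritin autophagy, was at 10.1, 11.9 and 12.2 FPKM in RCE replicates 1, 2 and 3, and at 9.85, 11.3 and 11.3 FPKM in control replicates 1, 2 and 3. RCE replicate 1 lay between the control values, so the groups overlapped. The change was 0.07 (95% interval -0.14 to 0.27, adjusted p = 0.617). It became -0.01 with median-of-ratios scaling and -0.02 with GC correction.

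Pcbp1 (ENSMUSG00000051695, chromosome 6, 86524492 to 86526321), the poly(rC)-binding protein that delivers iron to ferritin, was at 147.9, 139.8 and 146.7 FPKM in RCE replicates 1, 2 and 3, and at 144.3, 138.3 and 135.0 FPKM in control replicates 1, 2 and 3. Those values overlapped and differed by a change of 0.06 (95% interval -0.06 to 0.18, adjusted p = 0.455). With median-of-ratios scaling the change was -0.03.

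Among the sensors, Aco1 (ENSMUSG00000028405, chromosome 4, 40143081 to 40198338) encodes IRP1, which is cytosolic aconitase while it holds an iron-sulfur cluster and binds RNA once it has lost it. Its level was 13.7, 16.3 and 16.8 FPKM in RCE replicates 1, 2 and 3, and 12.5, 14.2 and 14.2 FPKM in control replicates 1, 2 and 3. RCE replicate 1 lay within the control range and the other RCE libraries above it. The change was 0.18 (SE 0.09, adjusted p = 0.211) without the block and was called higher with it (adjusted p = 0.00159). Aco1 was also the member called higher with the block and median-of-ratios scaling (0.09, adjusted p = 0.0277), and without RCE replicate 1 (0.26, adjusted p = 0.0421). Its adjusted p ran from 0.00159 to 0.491 over the 19 alternatives, all of which kept the sign.

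Ireb2 (ENSMUSG00000032293, chromosome 9, 54863789 to 54912530) encodes IRP2, which is controlled through its degradation. It was at 14.3, 17.4 and 17.96 FPKM in RCE replicates 1, 2 and 3, and at 12.6, 15.9 and 16.0 FPKM in control replicates 1, 2 and 3. The groups overlapped, while each RCE library lay above the control library of its number. The change of 0.15 (SE 0.12) did not pass (adjusted p = 0.411) and was called higher with the block (adjusted p = 0.00193). With the block and median-of-ratios scaling it was 0.07 and not called (adjusted p = 0.067), within a range of 0.00193 to 0.813 over the 19 alternatives.

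Aco1 and Ireb2 stood at nearly equal levels. Aco1 was 0.956, 0.937 and 0.938 times Ireb2 in RCE replicates 1, 2 and 3, and 0.995, 0.895 and 0.889 times in control replicates 1, 2 and 3, in FPKM. The groups overlapped in this ratio, and pairs did not share a direction.

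Fbxl5 (ENSMUSG00000039753, chromosome 5, 43744615 to 43821638) encodes the F-box protein that binds iron and marks IRP2 for degradation. Its level was 5.69, 6.32 and 6.68 FPKM in RCE replicates 1, 2 and 3, and 4.98, 5.91 and 5.83 FPKM in control replicates 1, 2 and 3. The groups overlapped through RCE replicate 1. The change of 0.14 (SE 0.08, adjusted p = 0.25) was called higher with the block (adjusted p = 0.00826) and not with the block and median-of-ratios scaling (0.06, adjusted p = 0.144). Over the 19 alternatives its adjusted p ran from 0.00826 to 0.722. Thus the mRNAs of both IRPs and of the factor that removes IRP2 were higher in 3 of 3 pairs each, as 56.5% of tested genes were.

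The order of levels was the same in both groups: Ftl1, Fth1, Pcbp1, Tfrc, Ireb2, Aco1, Ncoa4, Slc11a2, Fbxl5 and Steap3, in FPKM. Library ranges of Tfrc and Ireb2, of Ireb2 and Aco1, and of Slc11a2 and Fbxl5 overlapped in each group, and those of the other neighbours did not. Within libraries, which share the step of replicate 1, Slc11a2 lay above Fbxl5 in 6 of 6, Ireb2 above Aco1 in 6 of 6 and Tfrc above Ireb2 in 5 of 6.

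The members low in replicate 1 and those high in it had different transcripts. Tfrc, Slc11a2, Ncoa4, Aco1, Ireb2 and Fbxl5, the 6 members lowest in replicate 1 of both groups, have longest coding transcripts of 3832 to 5770 bases with a GC content of 39.0 to 52.1%. Fth1, Ftl1 and Pcbp1, the 3 highest there, have 968 to 1830 bases and 53.6 to 58.1% GC. The part of length or GC content in this split was not tested. Steap3, with 5158 bases and 52.9% GC, was in neither set. GC correction moved the changes of Tfrc and Ireb2, with 39.8 and 39.0% GC, to -0.14 and 0.04, and with the block as well Ireb2 was then not called (adjusted p = 0.271). It also moved the median change of all tested genes from 0.08 to 0.00. Median-of-ratios scaling, which uses no GC content, gave -0.12 for Tfrc and 0.07 for Ireb2. The part of GC content in these moves was not tested.

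The lists of other iron genes held 44 genes in the table, of which 35 were tested, 4 were higher and 1 was lower (18 and 4 with the block). These are 11.4% higher and 2.86% lower, beside 17.6% and 6.77% of all tested genes. The block called 46.6% of all tested genes higher and 15.9% lower. Those shares also stand beside the blocked counts of each list below. The median change of the 35 was 0.10, beside 0.08 for all tested genes. With median-of-ratios scaling 1 was higher and 2 were lower. The 4 higher were 1 without RCE replicate 2, control replicate 2 or control replicate 3, 2 without RCE replicate 3, and 17 without replicate 1 of both groups.

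Of 6 mRNAs listed for a 5′ element, Fth1 and Ftl1 included, 4 were tested, 1 was higher and 0 were lower. The block called 3 and 0 in these directions, and the list's median change was 0.11. The one that rose was Slc40a1, at 4.02, 5.87 and 6.11 FPKM in RCE replicates 1, 2 and 3, and at 1.76, 2.47 and 2.45 FPKM in control replicates 1, 2 and 3 (0.97, SE 0.16, limma adjusted p = 0.0081). Its groups were far apart, and its pairs gave log2 ratios of 1.19, 1.25 and 1.32.

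Of 5 mRNAs listed for a 3′ element, Tfrc and Slc11a2 included, all were tested, 1 was higher and 0 were lower. The block called 4 and 0 in these directions, and the list's median change was 0.13. Cdc14a, a phosphatase whose element is known from human transcripts, was at 1.58, 1.32 and 1.16 FPKM in RCE replicates 1, 2 and 3, and at 0.970, 0.694 and 0.930 FPKM in control replicates 1, 2 and 3 (0.34, SE 0.09, adjusted p = 0.0344). Its groups did not overlap, and its level was near the filter. Its call ended without RCE replicate 1 (adjusted p = 0.0551), RCE replicate 2 (0.102), control replicate 2 (0.0972) and control replicate 3 (0.0819), and with GC correction (0.18), median-of-ratios scaling (0.0756) and quantile normalization (0.21). The actin regulator Pfn2 (0.14, adjusted p = 0.079) and the kinase Cdc42bpa (0.13, adjusted p = 0.128) did not pass without the block and were called higher with it (adjusted p = 0.00175 and 0.00301, in ranges of 0.00175 to 0.45 and 0.00206 to 0.784). Among the mRNAs listed for a 3′ element, Tfrc alone had a change below 0. Only Tfrc and Slc11a2 of that list held an unspliced match in the mouse 3′ UTRs searched, with 1 unpaired base allowed. Cdc14a, Cdc42bpa and Pfn2 are thus listed for the element and were not found to carry it here.

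**Figure D4:**
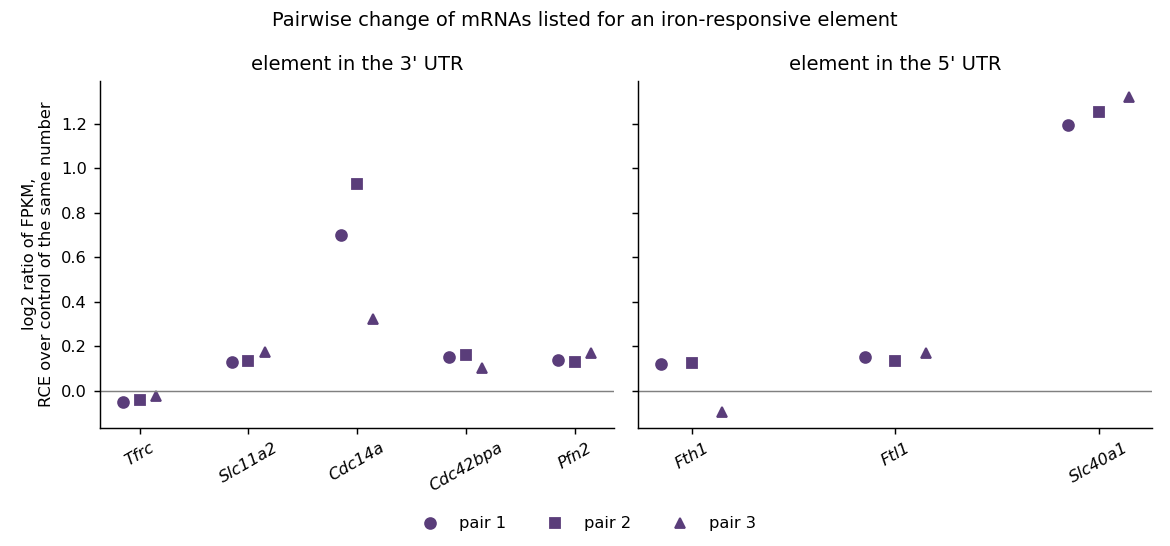
Log2 ratio of FPKM, RCE over the control library of the same number, for the named mRNAs listed for an iron-responsive element in the 3′ UTR (left) or the 5′ UTR (right). Symbols stand for the pair. Tfrc lies just below 0 in all 3 pairs, Slc40a1 lies at 1.19 to 1.32, and Fth1 lies on both sides of 0.

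Taken by sequence rather than by list, 22 tested genes held a fully paired match in a 5′ UTR, of which 7 were higher (31.8%) and 0 lower, with a median change of 0.11. The block called 12 of them higher and 1 lower, and with median-of-ratios scaling as well 7 were higher and 2 lower. In the 3′ UTR 89 tested genes held one, of which 15 were higher (16.9%) and 2 lower (2.25%), with a median of 0.08. Here the block called 43 higher and 10 lower, and with median-of-ratios scaling as well 21 were higher and 23 lower. Over all tested genes the shares without the block were 17.6% higher and 6.77% lower, and the median was 0.08. With the block these shares were 46.6% and 15.9%, and with median-of-ratios scaling as well 26.4% and 27.7%. With 1 unpaired base allowed, as for Slc11a2, 69 tested genes held a 5′ UTR match. Of these 13 were higher (18.8%) and 6 lower (8.7%) without the block, with a median of 0.07. In the 3′ UTR it was 282 tested genes, with 53 higher (18.8%), 20 lower (7.09%) and a median of 0.08. A match is a description of the letters and not a site, and most of these genes are not known IRP targets.

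Of 16 other uptake genes 10 were tested, 0 were higher and 1 was lower. The block called 3 and 3 in these directions, and the list's median change was 0.02. The lower one was Cd44, a hyaluronan receptor that can also take up iron bound to hyaluronan. It was at 151, 141 and 144 FPKM in RCE replicates 1, 2 and 3, and at 202, 214 and 205 FPKM in control replicates 1, 2 and 3 (-0.51, SE 0.05, adjusted p = 0.00177). The groups were well apart and the call held in all 19 alternatives (adjusted p of 3.94e-06 to 0.0167). Steap1, a relative of Steap3, had a change of 0.43 (adjusted p = 0.121, and 1.58e-05 with the block, in a range of 1.58e-05 to 0.306). Snx3, a sorting nexin that returns the transferrin receptor to the surface, had one of -0.14 (adjusted p = 0.376, and 0.00206 with the block, in a range of 2.06e-04 to 0.694). Mcoln1, a lysosomal channel that can pass iron, had one of -0.03 (adjusted p = 0.899).

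Of 9 other genes of storage and ferritin turnover 8 were tested, 1 was higher and 0 were lower. The block called 3 and 0 in these directions, and the list's median change was 0.05. Pcbp3, of the same family as Pcbp1, was at 4.30, 3.92 and 3.91 FPKM in RCE replicates 1, 2 and 3, and at 3.36, 3.09 and 3.41 FPKM in control replicates 1, 2 and 3 (0.23, SE 0.05, adjusted p = 0.0225). Its call ended without RCE replicate 2 (adjusted p = 0.0693), RCE replicate 3 (0.0571), control replicate 2 (0.0791) and control replicate 3 (0.0579), and with GC correction (0.06), median-of-ratios scaling (0.104) and quantile normalization (0.188). Pcbp2 had a change of 0.04 (adjusted p = 0.564) and Pcbp4 of 0.16 (adjusted p = 0.113, and 8.87e-04 with the block, in a range of 8.87e-04 to 0.532). Tax1bp1, an autophagy receptor that acts with NCOA4, had one of -0.07 (adjusted p = 0.265).

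Of 12 genes of the ligase that FBXL5 serves and of cytosolic iron-sulfur assembly, which gives IRP1 its cluster, all were tested, 1 was higher and 0 were lower. The block called 7 and 1 in these directions, and the list's median change was 0.11. Narfl, a factor of that assembly, was at 9.75, 9.15 and 9.89 FPKM in RCE replicates 1, 2 and 3, and at 8.37, 8.58 and 7.93 FPKM in control replicates 1, 2 and 3 (0.19, SE 0.05, adjusted p = 0.0362). Its call ended without any 1 of the 6 libraries (adjusted p of 0.0651 to 0.124), and with GC correction (0.105), median-of-ratios scaling (0.194) and quantile normalization (0.196). Of the ligase, the scaffold Cul1 had a change of 0.12 (adjusted p = 0.0712, and 0.00275 with the block, in a range of 0.00138 to 0.664) and the adaptor Skp1a one of -0.12 (adjusted p = 0.65, and 0.0175 with the block, in a range of 0.00104 to 0.887). Ciao2b, which targets clusters to their acceptors, had one of 0.11 (adjusted p = 0.414, and 0.0195 with the block, in a range of 0.0195 to 0.882).

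Promoter windows from RefSeq (GRCm38.p6, 250 bases before to 50 after the start) were found by symbol for 8 members, all but Slc11a2 and Fbxl5. The hypoxia response core ACGTG, searched on both strands, was in the windows of Tfrc, Ncoa4 and Pcbp1, and in those of 21.8% of all genes. TGACNNNGC, the core of the antioxidant response element, was in that of Ncoa4 and in those of 14% of all genes. Both are descriptions of these letters in this window.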

How the data were processed

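The authors deposited 1 FPKM value per gene and library; the unit is taken from the submitters' processing notes and from the values, since the file header names none. The submitters' processing notes name mm10, STAR 2.5.4, Cufflinks and Cuffdiff 2.2.1, with no roles. Libraries were made with a stranded mRNA kit from TRIzol RNA, per the labels' protocols. Not given in the sources used here were the annotation, the filters and the strand setting. FPKM scale each library to its depth, so transcripts that take a large share of the fragments can press on all others. On its longest coding transcript Ftl1 had 182102 to 245970 fragments per library, where the libraries held 45650000 to 59000000.

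All 21853 gene identifiers matched GENCODE M21, which gave coordinates, UTRs and GC content. Depth was the value at which low FPKM (0.02 to 0.5) of genes with 1 annotated transcript of up to 2500 bases gave whole fragments within 0.1, which held for 100% of 435 to 465 values per library, against 13.8 to 15.2% at other depths. No count model was used.

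Groups followed the labels (RCE, n = 3, and control, n = 3). Values of log2(FPKM + 1) for the 10870 genes whose mean reached 1 FPKM were fitted with limma 3.58.1 (R 4.3.3) with an intensity trend, 2-sided, with Benjamini-Hochberg adjustment over all 10870 and a threshold of 0.05. The fit without the block was run on simulated data with independent noise in each library. Those data lacked the step of replicate 1, so the run says nothing of its effect. The replicate numbers were taken to pair the libraries, because deviations from the group means correlated at 0.92, 0.62 and 0.68 for numbers 1, 2 and 3. The crossed pairs of numbers 2 and 3 reached 0.72 and 0.77, above their own, so for these the pairing rests on the numbers alone. Blocked values stand beside the members and the named genes whose call they change. Alternatives were other pseudocounts (0.1 and 0.5), filters, scalings, weights, GC correction by lowess, and libraries left out.

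The members and lists were chosen with earlier results of these data known. Named were all members and, of each list, every called gene and up to 3 more with the highest mean FPKM, except that 1 gene of the 5′ element list, held in its counts, is not reported here.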

Additional observations from a re-analysis of the deposited data

How the results depend on the processing

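The changes of Slc11a2, Ftl1, Aco1, Ireb2 and Fbxl5 kept their sign in all 19 alternatives. Against 1910 genes called higher and 736 lower over all tested genes, a mean of at least 5 FPKM gave 867 and 485, median-of-ratios scaling 913 and 1082, quantile normalization 785 higher, GC correction 890 and 1185, and array weights 5047 and 1731. The replicate block gave 5060 and 1730, with GC correction 2751 and 2951, and with median-of-ratios scaling 2871 and 3013. Leaving out libraries gave 685 to 4364 higher and 394 to 1480 lower, the highest of each without replicate 1 of both groups.

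Members called higher, 0 as reported, numbered 5 with the replicate block, with array weights and without replicate 1 of both groups. They numbered 1 without the trend, with the block and GC correction, with the block and median-of-ratios scaling, and without RCE replicate 1, and 0 with each other library left out. Over all tested genes 1887 were called higher without the trend and 2040 without RCE replicate 1. Members called lower were 1 with the block and GC correction and 1 with the block and median-of-ratios scaling, Tfrc in each. Other iron genes, 4 higher and 1 lower as reported, were 1 higher with a mean of at least 5 FPKM, with quantile normalization and with GC correction, and 1 and 2 with median-of-ratios scaling. With the block they were 18 and 4, with array weights 21 and 3, and 8 and 7 with the block and either GC correction or median-of-ratios scaling. Leaving out libraries gave 1 to 17 higher and 1 to 3 lower. Allowing 1 unpaired base raised the members with a 3′ UTR match to 2.

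Signs turned as follows. Tfrc ran from -0.18 to 0.11 with a library left out. Steap3 was -0.0409 with median-of-ratios scaling and -0.0545 with GC correction, the same with the block, -0.083 with quantile normalization, and -0.0067 to 0.0402 with libraries left out. Fth1 was -0.0372 with median-of-ratios scaling and -0.0202 with GC correction, the same with the block, and -0.0269 to 0.10 with libraries left out. Ncoa4 was -0.0133 and -0.0247 with these settings, and Pcbp1 -0.0296 with the first, the same with the block. The cause was not tested. With 3 libraries a group and a step between replicate 1 and the others, the unblocked intervals are wide, and the choice of scaling moves the median of all genes by 0.08, beside member changes of -0.04 to 0.18.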
